A study of Mus musculus with 2 samples.

Results

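Transcript models that keep the first intron of an annotated transcript but lose its last were examined in 2 long-read RNA libraries of mouse gastrocnemius, the large calf muscle. Members were models of the class ISM (incomplete splice match) in annotated genes, with at least 2 exons, whose introns formed an unbroken run of an annotated chain that held its first intron and not its last, read in the direction of transcription. They are called 5'-keeping chains here. Replicate 1 held 1479 of them among 80416 models and replicate 2 held 1051 among 74962. They amounted to 2143 distinct intron chains in 1646 genes. A fit to any annotated chain of the gene was enough, so some members fit another chain differently. In replicate 1, 72 members also kept the last intron but not the first of another chain, and 65 more were also internal to one. In replicate 2 these were 66 and 49. The stricter definition used at the end leaves such members out. Both libraries came from the gastrocnemius of female B6CASTF1/J mice, an F1 hybrid strain, aged 18 to 20 months, and are biological replicates 1 and 2 of a single group with no treatment. Each was started from 2 µg of RNA. The labels name the same donor record for both and do not state how many animals were used. The tests below therefore compare 2 libraries and measure counting error only.

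An incomplete splice match is a read structure that lacks introns of the annotated transcript it resembles without adding new ones. When the 5' part is missing, the usual term is 5' truncation. When the 3' part is missing, known origins of such models are early cleavage and polyadenylation inside an intron or an upstream exon, unspliced last introns, and cDNA primed at an internal run of A. Early cleavage in introns is known from receptor tyrosine kinase genes, where it gives soluble or truncated proteins, and the hexamer AATAAA or its variant ATTAAA normally lies shortly before a cleavage site.

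The sequences at 11 ends that recurred in both libraries are shown first, because the results return to them. Each run is coding sequence of the spliced transcript in GENCODE M21 on GRCm38 (mm10), read 5' to 3'. The 40 bases up to and including the recorded end are in lower case, and the 20 transcript bases that follow the end are in capitals. Son ends inside an exon; all others end at the last base of an exon, so that their capitals are the start of the next exon. None of these 40-base stretches holds AATAAA or ATTAAA.
Trdn (10, +, 33233926): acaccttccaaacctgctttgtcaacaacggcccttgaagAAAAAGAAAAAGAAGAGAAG
Lats1 (10, +, 7697649): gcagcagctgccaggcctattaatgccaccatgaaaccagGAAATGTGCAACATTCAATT
Eif5b (1, +, 38021811): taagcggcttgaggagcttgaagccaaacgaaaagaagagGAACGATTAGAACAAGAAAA
Sec62 (3, +, 30810026): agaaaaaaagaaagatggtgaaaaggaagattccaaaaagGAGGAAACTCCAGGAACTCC
Son (16, +, 91654699): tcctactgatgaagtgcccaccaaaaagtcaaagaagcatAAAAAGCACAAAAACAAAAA
Hcfc2 (10, +, 82739265): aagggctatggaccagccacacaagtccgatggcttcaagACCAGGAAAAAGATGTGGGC
Ankrd17 (5, -, 90254640): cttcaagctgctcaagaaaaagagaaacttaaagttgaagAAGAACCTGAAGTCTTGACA
Rtf1 (2, +, 119705643): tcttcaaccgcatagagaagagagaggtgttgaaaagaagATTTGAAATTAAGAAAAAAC
Myh1 (11, +, 67211584): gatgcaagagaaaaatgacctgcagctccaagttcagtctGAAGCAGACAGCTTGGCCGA
Myh2 (11, +, 67186740): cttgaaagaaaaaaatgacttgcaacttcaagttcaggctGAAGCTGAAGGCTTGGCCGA
Myh4 (11, +, 67251007): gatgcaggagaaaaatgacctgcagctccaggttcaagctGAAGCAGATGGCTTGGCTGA

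The 5'-keeping chains were a small fraction of the RNA. They took 3174 reads in replicate 1, or 0.284% of the 1117891 reads of annotated genes (Wilson 95% interval 0.274 to 0.294%). In replicate 2 they took 2196 of 975696 reads, or 0.225% (0.216 to 0.235%). The mean was 0.254% ± 0.0416 (SD, n = 2). The share was higher in replicate 1 by an odds ratio of 1.26 (Fisher's exact test, two-sided, p = 3.83e-17). With the leading gene, Trdn, left out, it was 0.25% in replicate 1 and 0.206% in replicate 2. The mirror class that keeps the last intron and loses the first was far larger, with 15364 models and 7.45% of reads in replicate 1, and 14048 models and 7.94% in replicate 2. That share was lower in replicate 1, so the mirror classes differed between the libraries in opposite directions; the part of read length or RNA quality in this was not tested. Chains that kept neither end numbered 318 in replicate 1 and 266 in replicate 2.

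Markers of the labelled tissue were abundant. Acta1, Ckm, Actn3 and Atp2a1, genes of skeletal muscle contraction and energy supply, were among the best-covered genes, while Nppa of heart, Alb of liver and Epcam of epithelium had no read in either library. Their shares of reads in 5'-keeping chains were unlike each other. Atp2a1, the calcium pump of the sarcoplasmic reticulum, had 0 of 169580 reads in 5'-keeping chains in replicate 1 and 0 of 186789 in replicate 2, which allows shares of up to 0.00177% and 0.00161%. Ckm, muscle creatine kinase, had 6 of 68798 and 2 of 53678, and Acta1, skeletal actin, had 9 of 66373 and 6 of 50333. Actn3, by contrast, had 94 of 15112 and 81 of 12923, or 0.622% and 0.627%, above the share over all genes. Among genes with 1000 or more reads the summed share was 0.0487% in replicate 1 and 0.0372% in replicate 2, against 1.28% and 0.822% among genes with 1 to 19 reads. The libraries also differed in fibre-type markers: Myh7, the slow myosin heavy chain, was covered by 183 reads in replicate 1 against 2330 in replicate 2. For Myh1, the fast 2X chain, the libraries held 1520 and 7086 reads. Slow troponin T (Tnnt1) had 211 and 914 reads, and slow troponin C (Tnnc1) had 105 and 605. Their part in the differences between the libraries below was not tested.

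Most members rested on a single read, 77.2% in replicate 1 and 76.9% in replicate 2, and only 32 and 26 members had 10 or more. The median member had 6 exons and 2001 bases in replicate 1, and 7 exons and 2391 bases in replicate 2. Compared with the closest annotated transcript that contains it, the median member kept 61.5% of the introns in replicate 1 and 66.7% in replicate 2. A single intron was missing in 551 and 445 members. The 5' end lay exactly on the annotated start of some transcript of the gene in 97.7% of members of replicate 1 and 97.8% of those of replicate 2. It was the start of a transcript that contains the member in only 866 members of replicate 1 and 591 of replicate 2. Of the distinct chains, 387 were read in both libraries, which is 26.2% of the chains of replicate 1 and 36.8% of those of replicate 2, and these shared chains held 60.2% and 66.3% of the member reads.

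The files give 1 recorded 3' end per model, not the end of each read. Of the 387 shared chains, 250 had the same recorded end base in both libraries, 48 had ends 1 to 20 bases apart, and 89 had ends further apart, by a median of 976 bases. Recorded ends also coincided with the annotation to the base: 671 members of replicate 1 and 520 of replicate 2 ended exactly on an annotated transcript end of the gene, but only 0 and 4 ended 1 to 20 bases from one. Just 16 and 15 ended 21 to 300 bases from the nearest annotated end, and 792 and 512 ended over 300 bases from it. The gap around annotated ends was thus wider than the 20 bp used for matching. The position of an end is therefore the position the authors' models carry, and the spread of read ends around it is not known.

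Sorted by the place of the 3' end, the members fell into structurally different groups. In 297 members of replicate 1 and 244 of replicate 2, the model ran to the 3' end of a transcript that contains it, with the missing introns left in its last exon; these took 690 and 539 reads. A further 374 and 280 members, with 1255 and 864 reads, ended at the annotated end of another transcript of the same gene. Of these, 107 and 94 also spanned a whole intron in their last exon. Exact exon boundaries ended 360 and 235 members (543 and 341 reads). Only 115 and 67 members (213 and 94 reads) ended inside an exon away from its boundaries. Introns of the gene held the ends of 314 and 209 members (443 and 321 reads), 9 and 8 more ended in an intron at a boundary of another annotated gene, and 10 and 8 ended outside the gene. In all, 1112 members of replicate 1 and 757 of replicate 2 stopped more than 20 bases before the end of every annotated transcript that contains them. By contrast, 67 and 49 members ended more than 20 bases past the end of the closest such transcript.

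**Figure D1:**
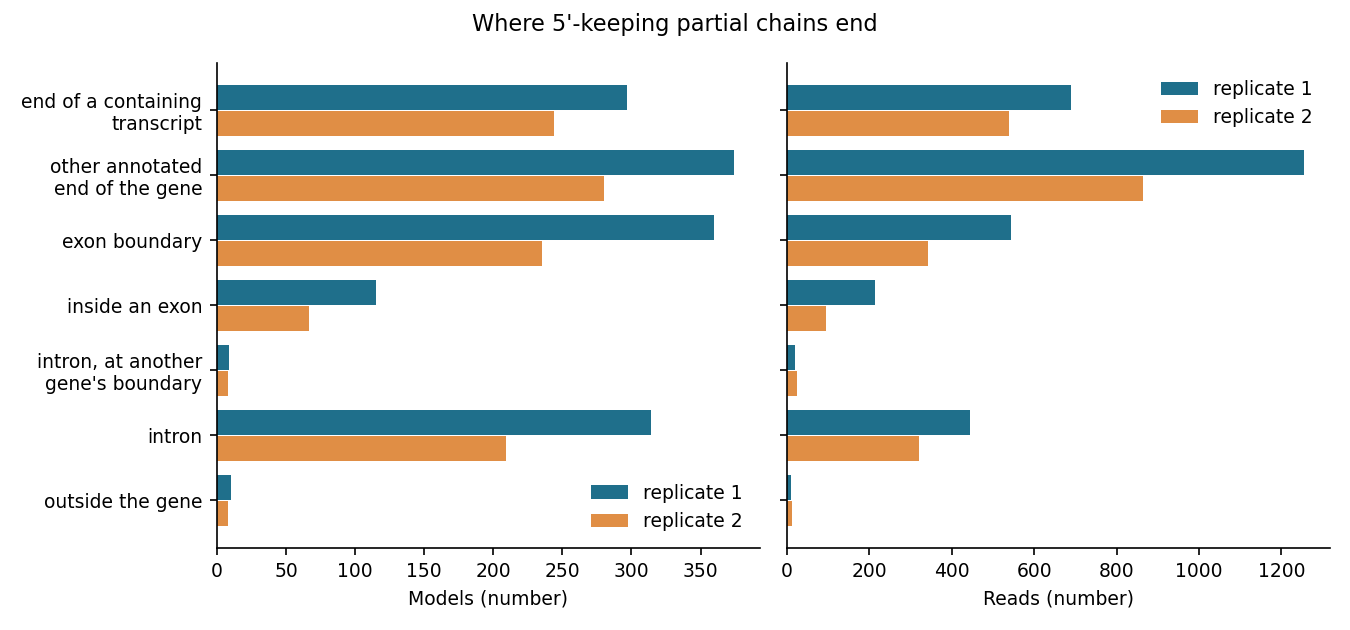
Models (left, number) and reads (right, number) of 5'-keeping chains by the place of their recorded 3' end, with replicate 1 and replicate 2 as separate bars. In both libraries the most reads lie at other annotated ends of the gene, 1255 in replicate 1 and 864 in replicate 2, where Trdn holds 368 and 184.

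Triadin, the junctional membrane protein that ties calsequestrin to the ryanodine receptor in the sarcoplasmic reticulum, led the class. Trdn had 383 of 928 reads in 5'-keeping chains in replicate 1, or 41.3% (38.1 to 44.5%), and 190 of 944 in replicate 2, or 20.1% (17.7 to 22.8%). Of 4057 genes with at least 20 reads in each library, 950 of which held member reads, Trdn was the only gene whose share differed between the libraries after Benjamini-Hochberg adjustment (Fisher's exact test per gene, adjusted p = 9.72e-20), in libraries that also differ in the slow and fast fibre markers given above; this is 0.0246% of the genes tested, and 17 genes had an unadjusted p below 0.05. Nearly all of the Trdn reads in 5'-keeping chains came from 1 chain of 10 exons and 1160 bases, with 366 reads in replicate 1 and 182 in replicate 2. It covers the first 10 of the 38 exons of the full-length transcript and 44.2% of its coding bases.

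The recorded end of this Trdn chain, at position 33233926 of chromosome 10, is the last base of exon 10 of the 38-exon transcript. It is also the end of a 9-exon annotated transcript that the annotation marks as incomplete at its 3' end. Another transcript, also of 9 exons and not marked incomplete, extends the same exon to 33233992, 66 bases further. In the 38-exon transcript the next exon opens with 15 A among its first 20 bases, as the capitals above show. A 5-exon chain that keeps neither end of the annotated transcript stopped at the same base, and it had fewer reads in replicate 1 (131) than in replicate 2 (219). All models together placed 529 Trdn reads at this end in replicate 1 and 440 in replicate 2, which is 57% and 46.6% of the gene. The difference between the libraries was thus 21.1 percentage points for the 5'-keeping chains, and the values for all reads at this end lay closer together. The part of read length or of the A-rich exon start in these counts was not tested.

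No other gene with many member reads passed the adjusted test between the libraries. Synpo, which encodes the actin-binding protein synaptopodin, had 54 of 99 reads in 5'-keeping chains in replicate 1 and 52 of 109 in replicate 2, or 54.5% and 47.7%. These reads formed a single 2-exon chain that stopped at the annotated end of shorter protein-coding transcripts of the gene. Phf10, a subunit of a chromatin remodelling complex of the SWI/SNF family, had 28 of 81 and 53 of 90 reads (34.6% and 58.9%; unadjusted p = 0.00208, adjusted p = 1 by Fisher's exact test). Its leading chain, with 25 reads in replicate 1 and 52 in replicate 2, stopped at the end of a transcript annotated as a target of nonsense-mediated decay. Psmd1, a large subunit of the proteasome cap, had 46 of 237 and 23 of 209 reads, and its leading 22-exon chain (46 and 19 reads) also stopped at such a transcript's end. Ankrd11, a chromatin regulator, had a 7-exon chain with 23 and 13 reads, 34.8% and 29.5% of the gene, which kept 9.38% of the coding bases. Lrp6, a Wnt co-receptor, had a 2-exon chain with 13 and 12 reads that kept 9.28% and made up 46.4% of its reads in replicate 1 and 33.3% in replicate 2. Jph1, junctophilin of the triad junction, had a 2-exon chain with 12 and 15 reads. It stopped at the annotated end of a 5-exon protein-coding transcript, where 93.5% and 99.5% of all Jph1 reads ended. The 4-exon transcript that contains the chain ends 30378 bases further on, and the chain kept 100% of its coding bases. Caprin1, an RNA-binding protein of stress granules, had 13 of 61 reads in 5'-keeping chains in replicate 1 and 14 of 71 in replicate 2, and AC149090.1 had 11 of 90 and 10 of 71.

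**Figure D2:**
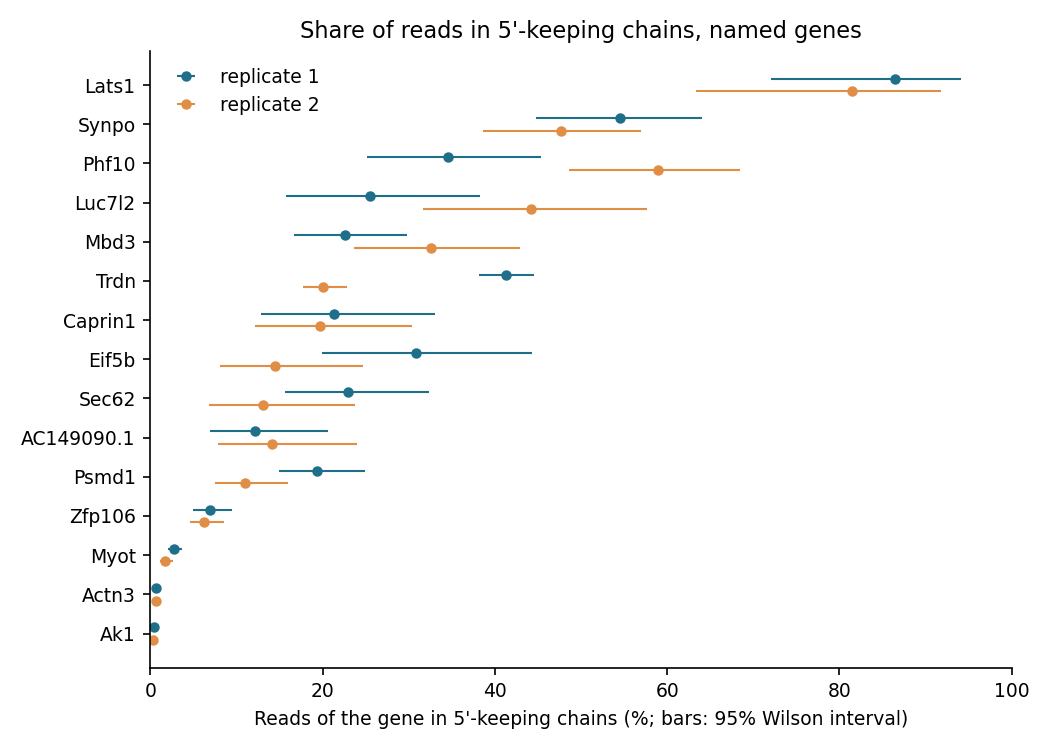
Percent of each gene's reads that lie in 5'-keeping chains, for the 10 genes with the most member reads and the 10 with the highest share among genes with at least 50 reads per library (5 genes are in both sets). Points are libraries and bars are Wilson 95% intervals; the intervals of the libraries are far apart for Trdn (41.3% and 20.1%), and Lats1 has the highest shares (86.5% and 81.5%).

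Members that ran to their own transcript's end were mostly cases of a single unspliced intron. Among them 219 of 297 in replicate 1 and 192 of 244 in replicate 2 lacked just 1 intron. Actn3, alpha-actinin-3 of the Z-disc of fast fibres, had the most such reads, 80 in replicate 1 and 78 in replicate 2, in a 20-exon chain whose last exon spans the final intron of the 21-exon transcript. They made up 0.529% and 0.604% of its reads. Ak1, adenylate kinase 1, had 20 and 18 such reads, 0.369% and 0.361% of the gene. Mlf2 had 25 and 14 reads (6.74% and 5.6%), and Myot, myotilin of the Z-disc, had 47 and 21 over 2 chains (2.71% and 1.7%). Mbd3, a subunit of the NuRD chromatin complex, had 2 such chains, with 13 and 16 reads for one and 20 and 13 for the other, and in all 22.6% of its reads in replicate 1 and 32.6% in replicate 2 were in 5'-keeping chains. These models reach the ordinary 3' end and keep intron sequence in place of a splice.

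Joined within 20 bp, the 3' ends of both libraries formed 2104 sites, of which 294 (14%) recurred in both libraries, 256 of them with the same base in both. These recurring sites held 1751 of the member reads in replicate 1 (55.2%) and 1304 in replicate 2 (59.4%). Of the 294 sites, 90 lay at the end of a containing transcript and 94 at another annotated end. The remaining 110 lay away from annotated ends, with 375 reads in replicate 1 and 292 in replicate 2. They comprised 58 exon boundaries, 13 sites inside exons, 34 in introns, 4 in introns at another gene's boundary and 1 outside the gene. All 294 recur within 20 bp, but those at annotated ends or boundaries coincide with the annotation. Leaving out these, the boundaries of other genes and the site outside the gene, a narrower set of candidate early poly(A) ends held 47 sites in 46 genes, with 155 reads in replicate 1 and 130 in replicate 2; 17 of them had at least 2 reads in each library. For scale, 25% of the 5' end sites of the mirror class recurred, 6.52% when annotated starts and exon boundaries were left out, against 7.31% for the 3' ends of 5'-keeping chains with annotated ends and boundaries left out. Of the 3' end sites of chains that keep neither end, 9.34% recurred.

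**Figure D3:**
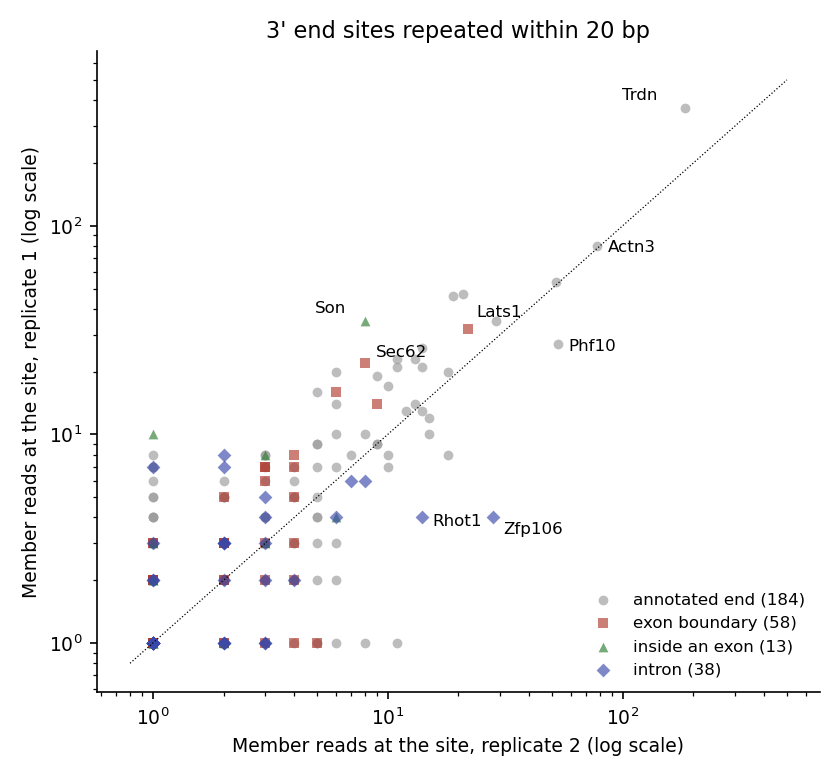
Member reads at each 3' end site found in both libraries, replicate 1 (vertical, log scale) against replicate 2 (horizontal, log scale); the dotted line marks equal reads and the single site outside a gene is not drawn. Annotated ends (grey) reach the highest counts, with Trdn at 367 and 184 reads, while Son lies well above the line (35 and 8) and the intronic sites of Zfp106 (4 and 28) and Rhot1 (4 and 14) lie below it.

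The exon-boundary sites with the most reads were led by Lats1, a kinase of the Hippo pathway that phosphorylates YAP. A 3-exon chain of 865 bases held 32 of the 37 Lats1 reads in replicate 1 and 22 of 27 in replicate 2, or 86.5% and 81.5%. It covers 14.6% of the coding bases of the 8-exon transcript and stops at the last base of exon 3. Eif5b, the GTPase that joins ribosomal subunits at initiation, had a 5-exon chain with 14 and 9 reads (26.9% and 13% of the gene). Sec62, part of the protein translocation machinery of the endoplasmic reticulum, had 22 and 8 reads at its site (22.9% and 13.1%). Hcfc2, of the host cell factor family, had 16 of 18 and 6 of 11 reads in a chain that lacks only the last exon and keeps 98.7% of the coding bases. Rtf1, a transcription elongation factor, had 8 of 18 reads at its site in replicate 1 and 4 of 8 in replicate 2. Ankrd17 had 5 of 21 and 4 of 11 in members, and 10 and 5 reads at this end over all models. The long non-coding gene 1500026H17Rik had 7 of 13 and 3 of 6.

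Ends inside exons were led by Son, a splicing cofactor of nuclear speckles. A 3-exon chain held 35 of 72 Son reads in replicate 1 (48.6%) and 8 of 36 in replicate 2 (22.2%), with ends at 91654699 and 91654711, so that it recurs at 20 bp but not at 5 bp. It keeps 5.22% of the coding bases, and of the 20 bases that follow the end 80% are A. Enpp5 had 8 and 3 reads (53.3% and 50% of the gene). Gm21988 had 4 of its 6 reads and 6 of its 6 at such a site. The other 10 sites had between 1 and 10 reads in a library.

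Recurring ends inside introns were spread over many genes at low counts of member reads. The counts below are of member reads unless all models are named. Most intronic ends lay well past the last kept exon: among members that span no whole intron, the median distance was 1014 bases in replicate 1 and 1130 in replicate 2, and just 7 members in each library ended 1 to 10 bases into the intron. Rhot1, the mitochondrial transport GTPase Miro1, had 4 of 52 reads in replicate 1 and 14 of 91 in replicate 2 at a site 1507 bases into its last intron, after exon 19 of 20, with 94.3% of the coding bases kept. Clec16a, of the endosomal and mitophagy pathway, had 4 of 34 and 6 of 83 reads in models that cross a whole intron and run 1473 bases past the end of a 7-exon annotated transcript. All models together placed 16 and 42 Clec16a reads at this end, or 47.1% and 50.6% of the gene. Rb1cc1, a scaffold of the autophagy-initiating kinase complex, had 3 and 3 reads, 1683 bases past exon 15 of 24. Rmdn1 had 4 and 3 reads (16% and 14.3% of the gene), and Tiparp, a mono-ADP-ribosyltransferase, had 5 and 3 (25% and 7.89%). Asb2, a ubiquitin ligase adaptor of muscle, had 7 and 2 of its 1859 and 1571 reads. Kbtbd12 had 8 and 2 reads, 3260 bases past its exon 5.

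Zfp106, an RNA-binding zinc finger protein, shows how a site depends on the recorded end. Its leading 5-exon chain had 19 reads in replicate 1 and 22 in replicate 2, but the recorded ends were 120532904 and 120533509. The site at 120533509, where all members together had 4 reads in replicate 1 and 28 in replicate 2, lies 2 bases past the boundary of exon 5. Luc7l2, a splicing factor of the U1 particle, had the same feature: its 9-exon chain, with 13 and 23 reads, ended at 38606367 in replicate 1 and at 38607151 in replicate 2. Some intronic ends coincided with other annotated genes. Ngly1, which removes N-glycans from misfolded proteins, had 6 and 8 member reads, of its 110 and 88 reads, ending at a boundary of another annotated gene. All models together placed 7 and 8 there. Nupl1, a nuclear pore protein, had 6 of 8 and 7 of 8 reads in members ending at a boundary of Gm49336. Over all models 8 and 8 reads, 100% of Nupl1 in both libraries, ended there. Gm1976, a non-coding gene, had 2 of 5 and 4 of 6 reads in members with such an end, and 3 and 6 over all models.

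At annotated ends, AATAAA or ATTAAA stood within the 40 bases before the end for 64.4% of members in replicate 1 and 70.8% in replicate 2, against 69.9% and 70.2% of all detected annotated multi-exon models. In 3'-keeping chains at an annotated end the values were 80.5% and 81.2%. Nearly all of these members end exactly on an annotated end. Their window is therefore sequence of the annotation, and the likeness does not test where reads end. Ends inside exons had the hexamer in 38 of 108 members with sequence in replicate 1 (35.2%) and 26 of 64 in replicate 2 (40.6%). Exon-boundary ends had it in 6.67% and 4.68%. The middle of internal exons of the same genes held the hexamer in 2.48% of 7352 windows and their downstream boundaries in 2.76%. Both hexamers were searched on the transcript strand only. The ends inside exons that lie past the stop codon had the hexamer in 17 of 31 members in replicate 1 and 17 of 25 in replicate 2, and those within the coding part in 19 of 70 and 6 of 31.

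A run rich in A after the end was also unevenly spread. For ends inside exons, 50% or more of the next 20 transcript bases were A in 30.6% of members in replicate 1 and 18.8% in replicate 2, against 6.46% of mid-exon windows. At exon boundaries the values were 12.2% and 11.1%, against 6.38% of the downstream boundaries of internal exons. The hexamer and the A-rich run seldom met: of the 108 and 64 ends inside exons, 5 and 1 had both, 33 and 25 had only the hexamer, 28 and 11 had only the A-rich run, and 42 and 27 had neither. Among recurring sites, 3 of 12 inside exons and 12 of 58 at exon boundaries were A-rich, and 5 and 3 had the hexamer. For boundary ends these bases belong to the next exon of the spliced RNA; the genomic bases after the boundary, and those around intronic ends, were not analysed here. These shares describe the letters around the recorded ends and locate no cleavage.

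**Figure D4:**
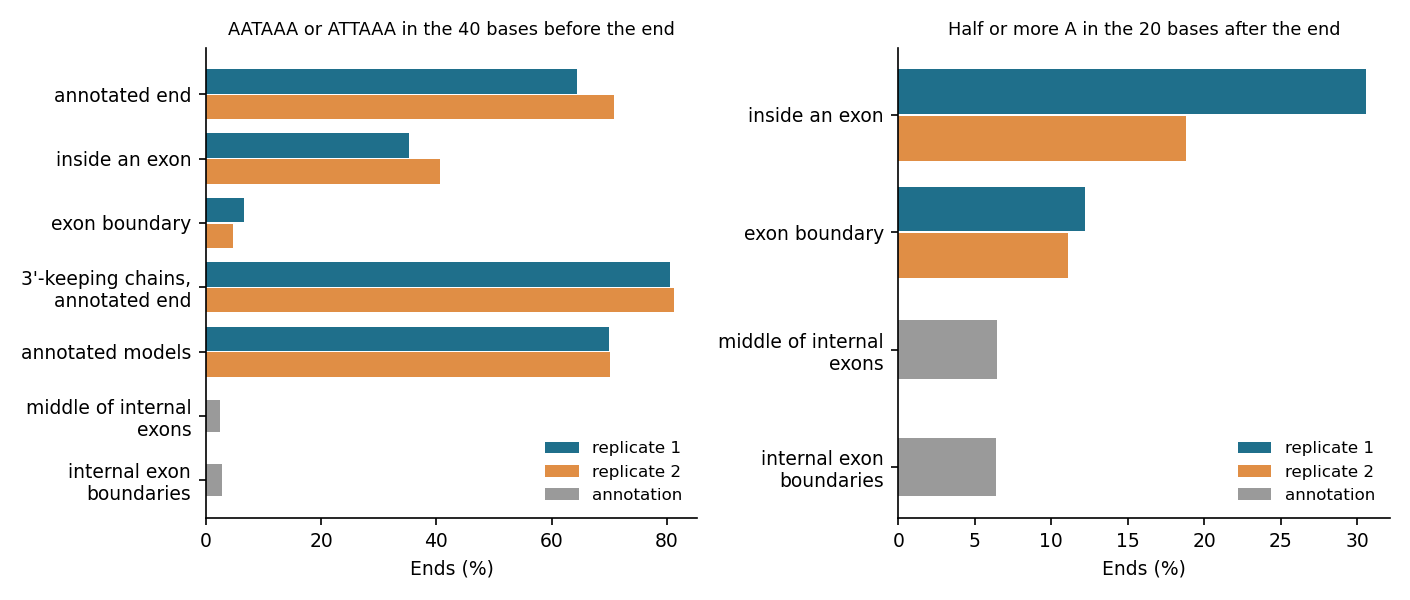
Percent of 3' ends with AATAAA or ATTAAA in the 40 bases before the end (left) and with at least 50% A in the 20 transcript bases after it (right), for replicate 1 and replicate 2; grey bars are windows of the annotation in the same genes. Ends inside exons lie between annotated ends and internal exon windows for the hexamer (35.2% and 40.6%) and have the highest A-rich shares (30.6% and 18.8%).

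Other models also ended at many recurring sites. At 144 of the 184 recurring annotated ends, models outside the class ended within 20 bp in each library. This held for 12 of 58 exon-boundary sites, 2 of 13 sites inside exons and 8 of 34 intronic sites. No other model ended in either library at 37 exon-boundary sites, 8 sites inside exons and 17 intronic sites. Lats1 had 1 further read at its site in replicate 1 and 2 in replicate 2, whereas Son had none in either.

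The shares in gene families of muscle are set beside those over all genes. Over all genes with a read, 1178 of 13149 held a member in replicate 1 and 873 of 12699 in replicate 2, and 405 held members in both. The percent of genes that held a member rose with the reads of the gene. It was 5.05% and 3.37% among genes with 1 to 19 reads. With 100 or more but under 1000 reads it was 20.1% and 19.9%, and with 1000 or more it was 54.2% and 42.5%. Many genes of the muscle lists are in these upper groups, and no list was tested against genes of like coverage. Among 25 giant and scaffold genes of the sarcomere, 10 had members in both libraries, with 142 reads in replicate 1 and 113 in replicate 2 (0.375% and 0.305% of the list's reads), and no gene of the 23 tested passed the adjusted threshold. Actn3 supplied 94 and 81 of them, and had a boundary site with 2 and 1 reads. Nebulin, the ruler protein of the thin filament, had an intronic site with 3 and 2 reads, and Mybpc2, fast myosin-binding protein C, had recurring sites with 3 and 4, 1 and 1, and 1 and 1 reads. Xirp1, an actin-binding repeat protein, had 8 of 72 reads in replicate 1 and 3 of 67 in replicate 2, and Obsl1, obscurin-like 1, had 2 of 7 and 2 of 9. Of 19 genes of calcium release and uptake, 6 had members in both libraries, with 418 and 217 reads (0.23% and 0.108%), of which Trdn held 383 and 190; Trdn was the sole gene of 17 tested that passed. Jph1 had 23 of 216 and 16 of 191 reads. Triadin also had boundary sites at exon 5 (7 and 3 reads), exon 4 (2 and 1) and exon 7 (2 and 1).

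Of 12 myosin heavy chain genes, 3 had members in both libraries, with 21 reads in replicate 1 and 23 in replicate 2 (0.0901% and 0.0557%). Myh1, Myh2 and Myh4, the fast myosin heavy chains, each had a recurring end that kept 46.3% of the coding bases. The 3 ends fall at the same point of near-identical sequences, as the runs above show. Reads there numbered 1 and 1 for Myh1, 1 and 4 for Myh2 and 3 and 1 for Myh4, so that single reads decide these sites. Myh4 had 2 further sites, with 1 and 5 and with 1 and 1 reads. Reads of close copies may be assigned to the wrong gene. Among 15 thin filament genes 4 had members in both libraries (26 and 22 reads, 0.0197% and 0.0238%) and no recurring site away from annotated ends.

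Glycolysis and glycogen genes had members of both libraries in 7 of 21 genes, with 40 reads in replicate 1 and 24 in replicate 2 (0.0697% and 0.0552%). Phka1, a regulatory subunit of phosphorylase kinase, had an intronic site with 7 and 1 reads, and Pgm1, phosphoglucomutase, had sites with 3 and 1 and with 2 and 1. Dystrophin complex genes had 12 member reads in replicate 1 and 8 in replicate 2, or 0.536% and 0.559% of their reads. Sgca held 5 and 5 of these member reads, and Ano5 held 5 and 2. The share over all genes, 0.284% and 0.225%, includes genes read far more often than any on this list. Among all genes with 20 or more but under 100 reads it was 0.692% and 0.592%. With 100 or more but under 1000 reads it was 0.376% and 0.306%. The values of the list lay between these. Dystrophin complex genes had members in both libraries in 3 of 15 genes, with a single recurring site away from annotated ends, in Ano5 with 1 and 1 reads. Respiratory chain and citric acid cycle genes had 10 and 6 member reads over 26 genes (0.0468% and 0.0277%), and no such site. Among 21 cleavage and polyadenylation factors, of which Pcf11 and Cstf3 are known to use early poly(A) ends in their own genes, 2 had members in both libraries (11 and 7 reads over the list, 1.39% and 1.01%) and no recurring site away from annotated ends. Pcf11 had only 4 and 4 reads in all and Cstf3 6 and 1, too few for the test or for a statement on early ends. Ppp1cb held 5 and 5 of the member reads of this list, and 380 and 368 of its reads. Its recurring site, with 5 and 5 reads, lay at the end of a containing transcript. Among 13 receptor genes known for intronic poly(A) ends, 1 had members in both libraries, with 1 and 3 reads over the list (0.252% and 0.563%), and none had a recurring site away from annotated ends. In these lists no gene other than Trdn passed the adjusted test between the libraries. The median share over all tested genes was 0% in both libraries. Of the cleavage factors 6, and of the receptor genes 4, had enough reads for the test.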

How the data were processed

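The authors deposited raw read counts for each transcript model, separately for both libraries; only models with at least 1 read are listed. Per the file headers, exon number and length are other columns, and the deposited annotations give each model's 1-based position on mm10. Per the labels the RNA carried ERCC and SIRV spike-ins, which were left out. The models extend GENCODE M21 and carry TALON names in the deposited files; for the aligner, filters and versions, the sources used here give nothing. Totals were 1175829 and 1017384 reads, of which 1117891 and 975696 were on annotated genes; a count of 0 allows up to 3 reads, or a CPM of 2.68 and 3.07 of annotated-gene reads.

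Chains were compared with annotated chains by exact intron positions, and each 3' end was placed by the annotation: at an annotated end within 20 bp, at an exact exon boundary, inside an exon, or in an intron. Shares were compared with Fisher's exact test (two-sided), Benjamini-Hochberg adjusted for all genes with at least 20 reads in each library at 0.05, and carry Wilson 95% intervals. Sequence came from spliced M21 transcripts, since intronic sequence was not used here, and this source and the finer classes of ends were chosen after the files were seen. Genes and sites are named by these rules: the 10 genes with the most member reads by the lower CPM; the 10 with the highest lower share among those with at least 50 reads in each library; the 15 recurring sites off annotated ends and the 10 intronic ones with the most reads; and list genes with such sites. One item that these rules would name is not reported here. The leading chains of Ankrd11, Lrp6, Jph1, Mlf2, Enpp5 and Kbtbd12, the values of Xirp1, Obsl1 and the fibre-type markers, and the abundant muscle genes were named after their values were seen. Members and gene lists were chosen with earlier results of these data known. Alternatives changed the read minimum, the denominator, the test, the matching distance and the definition of the class. Python 3.11.15, numpy 2.4.6, scipy 1.17.1 and matplotlib 3.10.9 were used.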

Additional observations from a re-analysis of the deposited data

How the results depend on the processing

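The odds ratio between the libraries stayed between 1.21 and 1.28 with a stricter definition of the class, protein-coding containing transcripts only, multi-exon reads as denominator, models of at least 2 reads, or Trdn left out (the last chosen after the data were seen), and passed the threshold each time. The mean share fell to 0.169% with models of at least 2 reads; each library alone gave 0.225% and 0.284%. The gene test called 1 gene, Trdn, under all 6 alternatives, with adjusted p between 1.35e-21 and 1.39e-13. The counts of recurring sites moved most with the read minimum: with at least 2 reads per model they were 107 in all, 38 off annotated ends and 15 also off exon boundaries. Exact identity of the base left 24 of these last in place of 47; the other distances gave 40 to 55. Of the 37 named sites, all recurred at 50 bp and 33 at 5 bp, the exceptions being Son, the Actn3 boundary site and 2 Myh4 sites. With at least 2 reads per model 21 recurred; the 16 lost were those of Asb2, Neb, Actn3, Ano5, Myh1, Myh2 and Phka1, 2 each of Mybpc2, Pgm1 and Trdn, and 3 of Myh4. Without either library no site or gene comparison can be made. No paired analysis was possible because the series holds 1 group. Single-read members, about 77% of the class, cannot be told from counting error, and 1 recorded end per model limits every statement on ends.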
